A study of Mus musculus with 6 samples.

Results

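The ubiquitin-specific proteases are the largest family of deubiquitinases, and their genes were taken from the deposited count table as the rows whose symbol is Usp followed by a digit. The rule found 46 of 15565 genes, and 43 of them passed the filter on low counts and were tested. One of the 46, Usp6nl, carries the name of a protease but encodes a GTPase-activating protein of the Rab family, so 42 proteases or protease homologues were tested. The libraries were made from polyadenylated RNA of hepatocytes, the parenchymal cells of the liver, isolated by collagenase perfusion from 3 mice. All mice were C57BL/6, 2 months old and of the genotype Tert(CreERT2/+); R26(LSL-Tomato/+), in which 1 Tert allele drives a tamoxifen-inducible Cre recombinase and 1 R26 allele holds a red fluorescent reporter that Cre can switch on. From each mouse TERT(High) and TERT(Low) cells were sorted, which gave 2 groups of 3 libraries that share this genotype, so both groups carry the CreERT2 allele. Neither the sorting gate nor any tamoxifen treatment is given in the labels.

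Ubiquitin is a small protein that is joined to lysines of other proteins, singly or in chains, by the successive action of activating, conjugating and ligating enzymes. Chains of one linkage send proteins to the proteasome, while other chains and single ubiquitins change a protein's partners or place, as on histones, endosomal receptors and DNA repair factors. Ubiquitin-specific proteases are cysteine proteases that cut these links, and so they recycle ubiquitin, rescue proteins from degradation and end ubiquitin signals. In liver, Usp2 is known as a rhythmic output gene of the circadian clock and Usp18 as an interferon-induced protease of the ubiquitin-like protein ISG15.

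Of the 43 tested members 15 were higher in TERT(High) cells and 0 were lower, against 4.43% of all 13288 tested genes that were higher and 3.71% that were lower. These calls are from edgeR's quasi-likelihood test at an adjusted p under 0.05, with p-values adjusted by Benjamini-Hochberg over all tested genes. The 15 were Usp9x, Usp24, Usp47, Usp8, Usp32, Usp16, Usp53, Usp34, Usp15, Usp25, Usp48, Usp7, Usp33, Usp1 and Usp45, with adjusted p from 0.0241 to 0.0439 and folds from 1.80 to 3.99. At an unadjusted p under 0.05 edgeR counted 21 members higher and 0 lower, where 16.3% of all genes were higher and 12.4% lower. DESeq2 on the same counts called 17 higher and 0 lower (13.6% of all genes it tested were higher and 11.6% lower), the 15 with Usp36 and Usp42. limma-voom also called 17 members higher and 0 lower, against 10.2% and 8.30% of all genes. With the mouse as a block edgeR called 14 higher and 0 lower, against 5.43% and 4.30%. The median log2 fold change was 0.69 over the tested members and -0.01 over all tested genes, and 37 of the 43 members had a positive value. In 22 members all 3 TERT(High) values lay above all 3 TERT(Low) values, and in 2 members, Usp39 and Usp35, all lay below, where 17.5% and 15.9% of all tested genes did so. In 8 of the 9 fits that left out a library or a mouse edgeR called 0 of all tested genes, members included. All 15 kept a positive log2 fold change in each of the 9, which reuse libraries by which the 15 were chosen. At an unadjusted p under 0.05 those 8 fits counted 15 to 20 members higher, where 8.43% to 14.4% of all genes were higher and 5.47% to 11.4% lower.

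**Figure D1:**
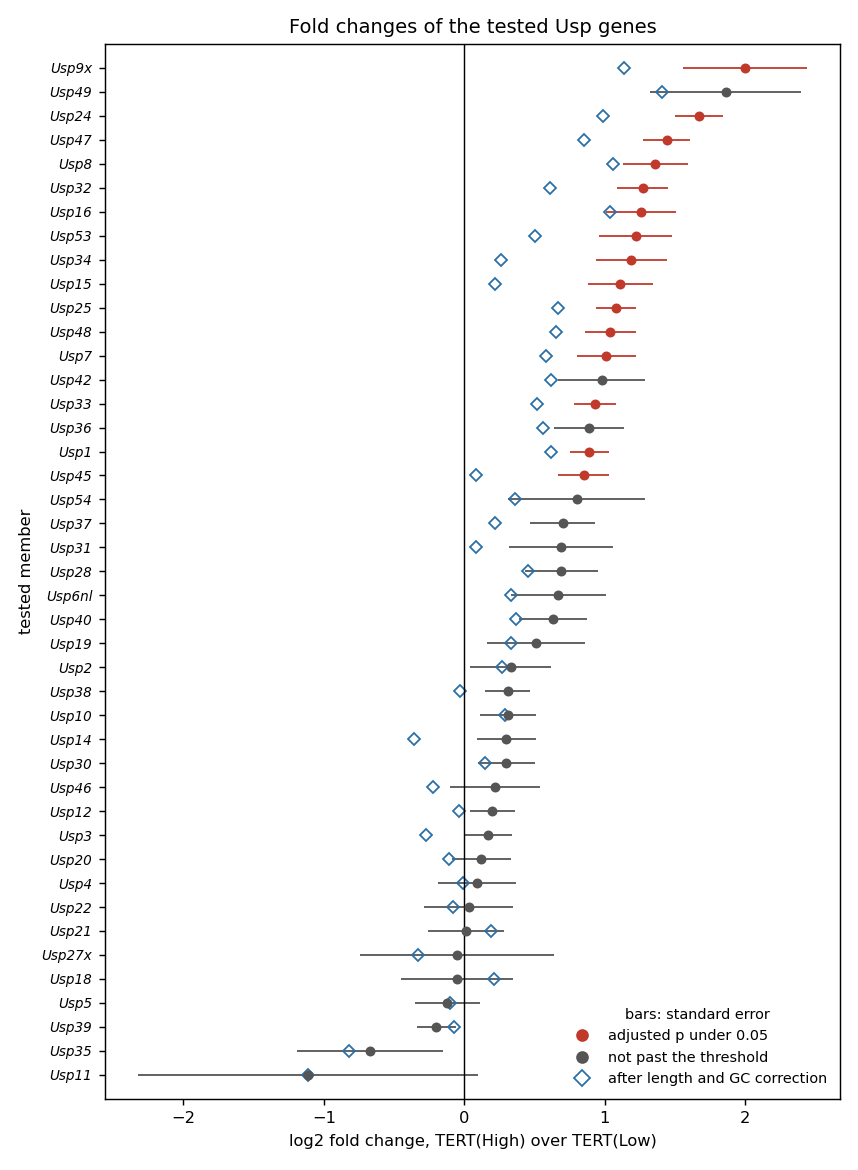
Log2 fold change of TERT(High) over TERT(Low) cells for the 43 tested Usp genes, with bars for the standard error, and in diamonds the value once trends with transcript length and GC content are taken out of each library. The 15 genes in red passed the adjusted p threshold, all on the positive side, and the diamond of each of them lies nearer to 0.

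Counts of Tert, the catalytic subunit of telomerase after which the groups are named, were 38, 33 and 30 in the TERT(High) libraries and 21, 21 and 12 in the TERT(Low) libraries (log2 fold change 0.87, SE 0.44, edgeR adjusted p = 0.249). Library totals ran from 53.6 to 76.2 in units of 1e6 counts. CPM here are counts per 1e6 counts scaled by TMM, edgeR's normalisation. Values in lists of 3 are those of mice 1, 2 and 3 in that order, those before "against" are of TERT(High) and those after it of TERT(Low) cells, and means are given ± SD with n = 3. All 10 hepatocyte markers were present, at a summed 115345 to 128481 CPM in TERT(High) and 104896 to 126745 CPM in TERT(Low) libraries. Of 8 endothelial markers edgeR called 2 (25.0%), Kdr and Lyve1, higher in TERT(High) cells, where 4.43% of all tested genes were. DESeq2 called these and Cdh5 and Stab2 higher, where 13.6% of all genes it tested were. The median log2 fold change of the 8 was 1.17, and only Clec4g was negative, at -0.08. Sums of the 8 were 28.1 to 50.8 against 20.2 to 23.2 CPM. Of 4 tested neutrophil markers edgeR called 0 and DESeq2 called S100a9 higher. Log2 fold changes were 2.03, 2.12 and 1.30 for S100a8, S100a9 and Csf3r, and -1.05 for Cxcr2. Sums of 10 macrophage markers were 17.5 to 98.3 against 14.6 to 46.2 CPM, with 0 called by edgeR. Each of the 10 had a positive log2 fold change (median 1.04, SE from 0.71 to 0.95) and its highest value in TERT(High) of mouse 3. Within mice 1 and 2 some of them were lower in TERT(High) cells. Sums of 8 stellate cell and fibroblast markers were 4.16 to 141 against 4.39 to 9.92 CPM, highest in TERT(High) of mouse 1. None of the listed markers in the count table was at 0 in all libraries. The part of these cells in the differences of Usp genes was not tested. In sorted bulk RNA fewer cells of a type and less RNA per cell cannot be told apart.

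Promoters of the family are shown because 15 members were higher together. The RefSeq promoter table for GRCm38.p6 matched 35 of the 46 members with 36 start sites, 11 of them of members that were higher. In the 250 bases upstream of a start site the members had a median GC content of 65.6%, against 52.4% over all 32851 promoters of the table, and a median of 24.5 CpG dinucleotides against 6. The GC box GGGCGG, a binding motif of SP1, searched on both strands, was present in 72.2% of member promoters and in 32.7% of all promoters. It stood in 8 of 11 promoters of members that were higher and in 18 of 25 of the others, similar shares in both sets. The motif CCGGAA of ETS factors, also on both strands, was present in 4 of 11 and 6 of 25, against 12% of all promoters. A TATAAA box was found in 0 of 11 and 2 of 25, against 12.4%. The E-box CACGTG was found in 4 member promoters, those of Usp16, Usp31, Usp4 and Usp6nl, and the D-box TTATGTAA in 0. A match describes letters in this window and is not a measured binding site. Examples are printed on mm10 (GRCm38.p6), each cut where the annotated gene begins, with CCGGAA or its reverse complement in capitals. Usp8 and Usp16 were higher and hold 2 matches each, which overlap in Usp16, while Usp10, an abundant member that was not called, holds 0. These examples do not stand for their sets. The motif was also present in promoters of Usp11, Usp19, Usp30, Usp36, Usp38 and Usp54, which were not called. It was absent from those of Usp7, Usp15, Usp25, Usp34, Usp45, Usp47 and Usp48, which were higher. The promoters of Usp10 and Usp16 lack the GC box, and their GC content, 46.4% and 54%, lies below the member median.
Usp8, chr2:126707078-126707200, + strand: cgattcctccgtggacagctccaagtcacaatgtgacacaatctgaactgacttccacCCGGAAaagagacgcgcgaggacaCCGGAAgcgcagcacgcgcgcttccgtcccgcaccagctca
Usp16, chr16:87454735-87454984, + strand: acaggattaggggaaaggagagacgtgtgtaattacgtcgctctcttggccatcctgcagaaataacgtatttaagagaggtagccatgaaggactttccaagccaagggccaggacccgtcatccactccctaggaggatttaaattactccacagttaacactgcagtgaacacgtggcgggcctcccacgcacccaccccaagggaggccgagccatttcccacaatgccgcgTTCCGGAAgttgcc
Usp10, chr8:119910110-119910359, + strand: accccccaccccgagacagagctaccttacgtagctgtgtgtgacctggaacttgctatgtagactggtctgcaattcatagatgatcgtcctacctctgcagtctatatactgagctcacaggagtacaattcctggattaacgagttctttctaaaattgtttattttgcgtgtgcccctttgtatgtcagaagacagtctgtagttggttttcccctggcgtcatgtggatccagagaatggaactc

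All 3 of the very large proteases in the table were higher, where 4.43% of all tested genes were. The transcripts of Usp9x, Usp24 and Usp34 have 11887, 10594 and 11363 nt. In the quintile of tested genes with the longest transcripts, which holds these 3, 15.2% of genes were higher. Usp9x (Entrez gene 22284, chromosome X, 13070982 to 13173328), which deubiquitinates proteins of polarity, adhesion and survival pathways, was at 82.2, 29.4 and 48.4 CPM in TERT(High) and 13.0, 8.84 and 18.3 CPM in TERT(Low) cells. Its TERT(High) value in mouse 1 stood above the rest, but the groups did not overlap. The means were 53.3 ± 26.8 and 13.4 ± 4.73 CPM. On the log2 scale the difference was 2.00 (SE 0.44, adjusted p = 0.0439), and 1.48 to 2.35 with a library or a mouse left out. Usp24 (Entrez gene 329908, chromosome 4, 106315980 to 106446613) was more even, at 38.4, 34.7 and 45.7 against 12.1, 11.4 and 13.8 CPM. The adjusted p of Usp24 was 0.0241 (log2 fold change 1.67, SE 0.17), and the differences within mice were 1.66, 1.60 and 1.72. Usp34 (Entrez gene 17847, chromosome 11, 23303185 to 23490560), a regulator of axin in Wnt signalling, was at 26.3, 15.3 and 25.7 against 8.41, 9.59 and 11.5 CPM. The smallest of its within-mouse log2 differences, 0.67, was in mouse 2, where the others were 1.63 and 1.16. Exons of Usp34 share 2137 bases with Ahsa2 on the other strand, and the strand setting of the counting is not given, so part of its count is uncertain.

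Among 8 members with roles in DNA repair and the cell cycle 4 were higher, and all 8 had a positive log2 fold change (median 0.77). Over all 43 tested members 15 were higher and 37 were positive, and 4.43% of all tested genes were higher. Whether roles differ from the rest of the family was not tested. Usp47 (Entrez gene 74996, chromosome 7, 112023476 to 112111386), which stabilises the base-excision polymerase, reached 40.0, 32.3 and 44.9 CPM in TERT(High) cells and a nearly constant 14.1, 14.3 and 14.9 CPM in TERT(Low) cells. That is 39.1 ± 6.38 against 14.4 ± 0.398 CPM (log2 fold change 1.44, SE 0.17, adjusted p = 0.0241). Usp1 (Entrez gene 230484, chromosome 4, 98923810 to 98935543) removes ubiquitin from Fancd2 and Pcna in DNA crosslink repair and lesion bypass. It was at 10.1, 10.2 and 10.6 against 5.80, 5.48 and 5.41 CPM, one of the tightest differences of the family (log2 fold change 0.89, SE 0.14, adjusted p = 0.0277). Usp48, which acts on histone H2A at the site used by Brca1, was at 10.9, 12.4 and 13.8 against 6.28, 5.16 and 6.62 CPM (1.04 on the log2 scale, SE 0.18, adjusted p = 0.0296). Usp45, which acts on the repair nuclease subunit Ercc1, was at 6.58, 6.85 and 7.98 against 3.66, 4.53 and 3.72 CPM (0.85, SE 0.18, adjusted p = 0.0416). With the mouse as a block this p was 0.0517, which made Usp45 the 1 call of the 15 lost under the block. Usp37 and Usp28, which act on cell cycle regulators and on Myc, had groups that did not overlap, log2 fold changes 0.70 (SE 0.23) and 0.69 (SE 0.26), and adjusted p of 0.101 and 0.141. Usp12 and Usp46 share with Usp1 the activating partner Wdr48. Their log2 fold changes were 0.20 (SE 0.16) and 0.22 (SE 0.32), with adjusted p of 0.485 and 0.690, and overlapping groups. Wdr48 itself was at 8.32, 14.2 and 11.9 against 8.46, 7.68 and 9.41 CPM (0.43, SE 0.23, adjusted p = 0.270).

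Of 9 members that act on chromatin and in the nucleolus 2 were higher, where 34.9% of all tested members and 4.43% of all tested genes were. Usp16 (Entrez gene 74112, chromosome 16, 87454985 to 87483515), a histone H2A deubiquitinase, was at 12.1, 9.03 and 15.3 against 4.82, 4.22 and 6.18 CPM (log2 fold change 1.26, SE 0.25, adjusted p = 0.0375). Exons of Usp16 share 192 bases with those of the chaperonin gene Cct8 on the other strand. Usp7 (Entrez gene 252870, chromosome 16, 8688722 to 8757067), which stabilises Mdm2 and p53 and several chromatin proteins, was at 16.7, 22.9 and 25.4 against 8.95, 11.4 and 12.0 CPM. In both groups Usp7 was lowest in mouse 1, and its within-mouse log2 differences were 0.89, 1.01 and 1.08 (log2 fold change 1.01, SE 0.21, adjusted p = 0.0400). Usp49, a histone H2B deubiquitinase, had the second largest log2 fold change of the family, 1.86 (SE 0.54), from 29, 40 and 40 counts against 18, 8 and 5. These low counts did not overlap, and its adjusted p was 0.0765. Of its 8581 exon bases 4392 also belong to the annotated gene Gm20517 on the same strand. Usp42 and Usp36, a histone H2B and a nucleolar deubiquitinase, were positive in all 3 mice with adjusted p of 0.0941 and 0.0734. Usp22, the H2B deubiquitinase of the SAGA coactivator, and its paralog Usp27x were near 0, with log2 fold changes 0.03 (SE 0.32) and -0.05 (SE 0.69). Usp3 and Usp21, which act on histone H2A, had 0.17 (SE 0.17) and 0.01 (SE 0.27).

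**Figure D2:**
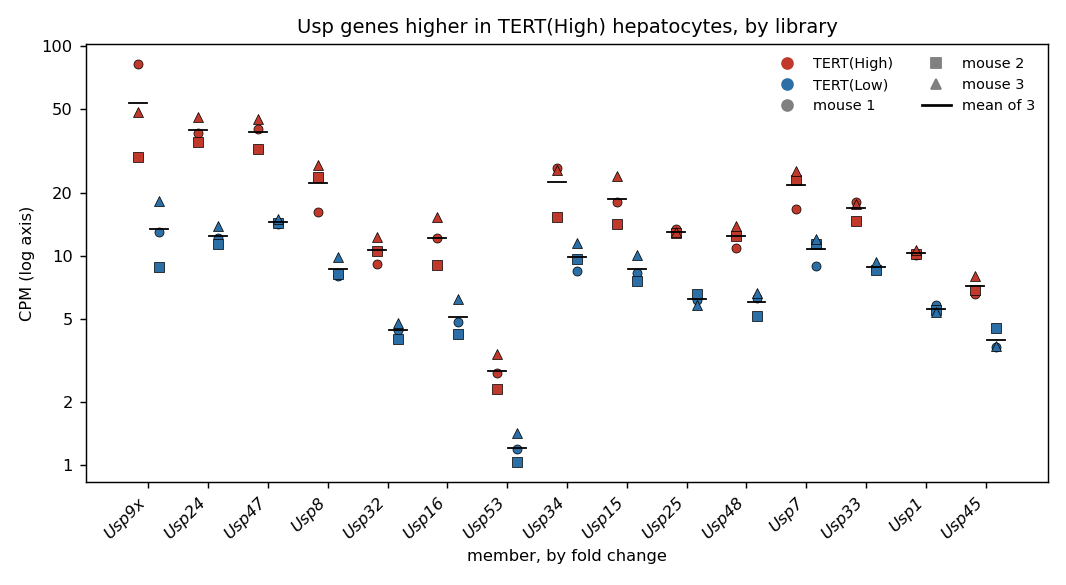
Levels in CPM (log axis) of the 15 Usp genes that were higher in TERT(High) cells, 1 point per library with the mouse as its shape and a bar at the mean of 3 libraries. For every one of the 15 genes the 3 TERT(High) points lie above the 3 TERT(Low) points, and Usp9x has the widest spread, from 29.4 to 82.2 CPM in TERT(High) cells.

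Of 7 members of membranes, endosomes and organelles 3 were higher and all 7 had positive values. Over all 43 tested members 34.9% were higher and 37 were positive, and 4.43% of all tested genes were higher. Usp8 (Entrez gene 84092, chromosome 2, 126707201 to 126759314) deubiquitinates receptors such as Egfr on endosomes. It was at 16.1, 23.7 and 27.0 against 7.98, 8.19 and 9.86 CPM (log2 fold change 1.36, SE 0.23, adjusted p = 0.0283). Stam and Stam2, its partners in endosomal sorting, had 0.37 (SE 0.16) and 0.26 (SE 0.15) and were not called. Usp32 (Entrez gene 237898, chromosome 11, 84984437 to 85140281), a membrane-bound protease of the endosomal and Golgi system, was at 9.17, 10.5 and 12.3 against 4.43, 3.99 and 4.78 CPM (1.27, SE 0.18, adjusted p = 0.0277). Usp33, first known as a partner of the von Hippel-Lindau protein, was at 18.1, 14.7 and 17.7 against 8.71, 8.50 and 9.33 CPM (0.93, SE 0.15, adjusted p = 0.0277). Its paralog Usp20 was at 3.98, 3.90 and 5.08 against 4.60, 3.97 and 3.38 CPM, with overlapping groups (0.12, SE 0.21, adjusted p = 0.750). The 2 coding sequences were identical at 67.0% of aligned bases, with no shared run over 23 bases. Usp30, the protease of the outer mitochondrial membrane that opposes mitophagy, was at 8.29, 11.7 and 9.18 against 8.81, 8.21 and 6.66 CPM (0.30, SE 0.20, adjusted p = 0.384). Usp10, a partner of the stress granule protein G3bp1, was at 52.2, 54.0 and 45.7 against 45.7, 46.2 and 30.8 CPM (0.31, SE 0.20, adjusted p = 0.358). Usp19, anchored in the endoplasmic reticulum, was at 22.2, 42.0 and 26.8 against 24.6, 26.3 and 12.9 CPM, which overlap (0.51, SE 0.35, adjusted p = 0.390).

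Of the Usp4 paralogs only Usp15 was called. Usp15 (Entrez gene 14479, chromosome 10, 123105006 to 123197281), a regulator of TGF-beta signalling, was at 18.0, 14.2 and 24.0 against 8.23, 7.60 and 10.1 CPM (log2 fold change 1.11, SE 0.23, adjusted p = 0.0405). Usp4, the most abundant member, was at 45.6, 89.3 and 71.8 against 52.1, 65.7 and 76.8 CPM. Its groups overlap widely, and the log2 fold change was 0.09 (SE 0.28, adjusted p = 0.860). Both can be brought to the spliceosome by Sart3, whose value was 0.37 on the log2 scale (SE 0.25, adjusted p = 0.381). The difference between Usp15 and Usp4 was not tested. Their assigned transcripts have 11525 and 3662 nt. With trends of length and GC content taken out, edgeR gave 0.22 (SE 0.26) for Usp15 and -0.01 (SE 0.31) for Usp4. Usp11, the third paralog, had 5, 4 and 20 counts in TERT(High) and 58, 1 and 13 counts in TERT(Low) cells, with overlapping groups. Its log2 fold change (-1.11, SE 1.21, adjusted p = 0.597) was 0.29 without TERT(Low) of mouse 1. Usp39, a catalytically inactive homologue needed to assemble the spliceosome, was at 16.8, 19.8 and 19.0 against 21.4, 20.9 and 21.6 CPM. All TERT(High) values of Usp39 lay below, by a small margin (log2 fold change -0.20, SE 0.14, adjusted p = 0.392). Coding sequences of Usp4 and Usp15 were identical at 66.6% of aligned bases with a longest shared run of 25 bases. Among the 16 paralog pairs compared no pair shared a run of 50 bases, and the nearest pair, Usp22 and Usp27x, was identical at 78.1% with a run of 32 bases.

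Usp25 and Usp18 stand for innate immunity. Usp25 (Entrez gene 30940, chromosome 16, 77013684 to 77116783) was at 13.4, 12.8 and 12.9 against 6.16, 6.57 and 5.80 CPM, with the least relative spread among the 15 within TERT(High) cells (log2 fold change 1.08, SE 0.14, adjusted p = 0.0274). Usp18 was at 8.21, 18.1 and 6.37 against 12.9, 12.0 and 8.97 CPM, with its highest and its lowest value both among TERT(High) libraries (-0.05, SE 0.40, adjusted p = 0.945). Without TERT(High) of mouse 2 the value was -0.66. Of 12 genes of the ISG15 and interferon pathway 1 was called in the fit without the block, Herc6, the mouse ligase of ISG15, which was higher at 8.70, 6.44 and 5.61 against 3.02, 2.96 and 3.53 CPM (1.13, SE 0.22, adjusted p = 0.0365). Ube2l6, the conjugating enzyme of ISG15, was at 72.6, 49.7 and 38.9 against 114, 80.3 and 68.7 CPM, lower in TERT(High) cells of each mouse with groups that overlap (-0.71, SE 0.29, adjusted p = 0.168). With the mouse as a block it was called lower (-0.72, SE 0.12, adjusted p = 0.0407). Isg15 was at 5.55, 9.46 and 4.82 against 8.28, 6.78 and 7.36 CPM.

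Usp53 and Usp54 were long thought to lack protease activity, and Usp53 lies at tight junctions, where its loss is known to cause cholestasis in people. Usp53 (Entrez gene 99526, chromosome 3, 122931486 to 122984900) was at 2.74, 2.31 and 3.41 against 1.19, 1.03 and 1.42 CPM (log2 fold change 1.22, SE 0.26, adjusted p = 0.0417). Usp54 was at 0.767, 1.88 and 2.21 against 1.34, 0.668 and 0.778 CPM, lower in TERT(High) cells of mouse 1 and higher in those of the other mice (0.80, SE 0.49, adjusted p = 0.338).

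Neither tested member of free ubiquitin recycling was called. Usp14, which trims chains at the proteasome, was at 32.4, 20.2 and 23.2 against 18.7, 23.2 and 19.6 CPM (log2 fold change 0.30, SE 0.21, adjusted p = 0.411). Its exons share 2169 bases with Thoc1 on the other strand. Psmd2, the proteasome subunit at which it docks, had -0.05 (SE 0.16). Usp5, which takes apart unanchored ubiquitin chains, was at 31.5, 51.1 and 43.6 against 48.8, 51.1 and 37.0 CPM (-0.12, SE 0.23, adjusted p = 0.763). Rps27a, which encodes ubiquitin fused to a ribosomal protein, was lower, at 232, 194 and 218 against 340.4, 369 and 411 CPM (-0.80, SE 0.15, adjusted p = 0.0331). Ubb, a polyubiquitin gene, had -0.26 (SE 0.28) and was not called.

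Usp2 was at 18.1, 28.9 and 18.8 against 18.3, 21.9 and 12.0 CPM, with overlapping groups (log2 fold change 0.33, SE 0.29, adjusted p = 0.503). Of 14 genes of the circadian clock and its output 0 were called by edgeR. DESeq2 called Clock and Per2 higher (log2 fold changes 1.18 and 1.03, adjusted p of 0.0115 and 0.0113), where 13.6% of all genes it tested were higher. Dbp, a clock output factor, was at 29.4, 2.82 and 3.98 in TERT(High) and 30.2, 2.18 and 5.77 CPM in TERT(Low) cells. Thus Dbp differed by mouse, high in both libraries of mouse 1, and this order was not seen in Usp2.

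The other tested members were not called. Usp40, Usp31 and Usp38 were positive at 0.63, 0.69 and 0.31 on the log2 scale (SE 0.24, 0.37 and 0.16), with adjusted p of 0.143, 0.273 and 0.255. Usp35 had 8, 14 and 12 counts against 22, 15 and 17 (log2 fold change -0.67, SE 0.52, adjusted p = 0.450). Usp6nl was at 7.49, 15.7 and 10.3 against 4.96, 9.38 and 6.64 CPM, and within each mouse it was higher in TERT(High) cells by 0.59, 0.73 and 0.62 on the log2 scale (adjusted p = 0.254, and 0.0523 with the mouse as a block). Below the filter stood Usp13, Usp29 and Usp43. Usp13 had 1, 0 and 4 counts in TERT(High) and 32, 0 and 6 in TERT(Low) cells, Usp29 had 3, 1 and 6 against 25, 0 and 8, and Usp43 had 0, 2 and 6 against 3, 0 and 5. Counts of Usp13, Usp29 and Usp11 were each highest in TERT(Low) of mouse 1 and at 0 or 1 in TERT(Low) of mouse 2. Exons of Usp29 share 2582 bases with Zim3 on the other strand.

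Per length of transcript the most abundant members were not those that were higher. Mean levels over all 6 libraries, as CPM per kilobase of transcript, were 18.3 for Usp4, 13.6 for Usp5, 12.3 for Usp10, 8.87 for Usp39 and 6.27 for Usp18. Usp19, Usp2 and Usp14 followed at 5.38, 5.08 and 4.84, and then Usp47 at 4.60 as the first of the 15. These 8 levels above Usp47 thus all belong to members that were not called. The summed level of the 46 members was 684, 721 and 728 CPM in TERT(High) and 471, 493 and 457 CPM in TERT(Low) libraries. The 15 members made up 321, 251 and 335 CPM of it against 114, 111 and 134 CPM, and the other 31 made up 363, 469.6 and 393 against 357, 382 and 323 CPM.

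The members that were higher had longer transcripts by the median, a property that went with the fold change across all genes. Their median transcript had 5816 nt and 44.0% GC, against 4387 nt and 50.8% GC for the 28 members not called and 2962.5 nt and 50.5% GC for all tested genes. Across the 43 members Spearman's rho of the log2 fold change was 0.635 against transcript length and -0.611 against GC content. Across 12548 tested genes the same values were 0.482 and -0.275, and in both cases genes share libraries and are not independent replicates. The slope of log2 CPM on log2 transcript length, relative to the mean of all libraries, was 0.0934, 0.159 and 0.219 in TERT(High) and -0.0833, -0.192 and -0.196 in TERT(Low) libraries. It thus separated the 2 groups, so length and group cannot be told apart at the level of libraries. Split by length, the longest quintile of tested genes (4909 nt or more) held 17 members, of which 9 were higher, where 15.2% of its 2509 genes were higher. The quintile from 3470 to 4906 nt held 20 members, of which 5 were higher, where 5.27% of its genes were. The 3 members from 2520 to 3469 nt included Usp16, the 1 of them that was higher, where 2.23% of genes were.

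**Figure D3:**
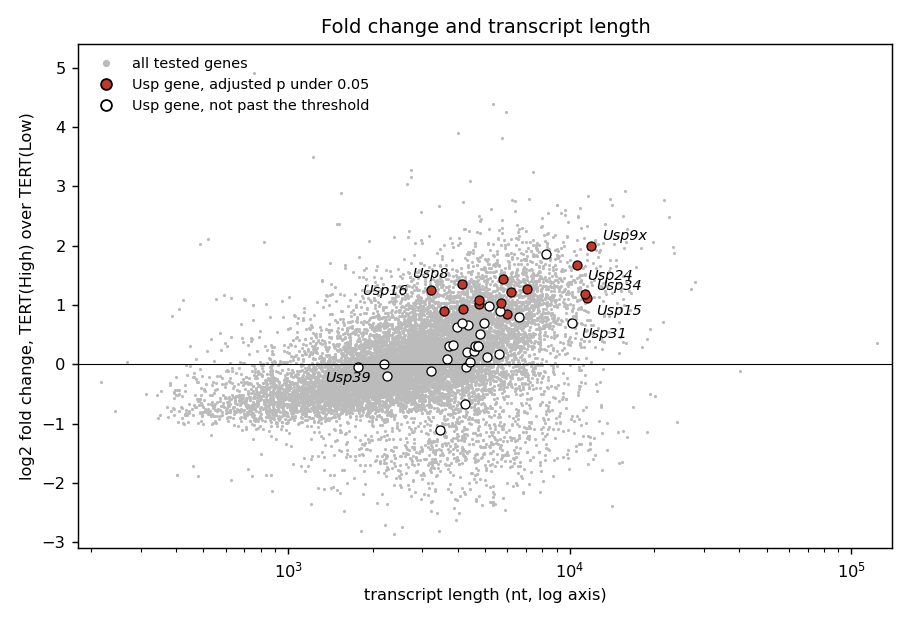
Log2 fold change against transcript length (log axis) for all tested genes with an annotated coding transcript (grey) and the 43 tested Usp genes. Members past the threshold (red) have transcripts from 3205 nt (Usp16) to 11887 nt (Usp9x), and Usp31, with 10198 nt, was not past the threshold.

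When the trends with transcript length and GC content were taken out of each library, no member passed the threshold in edgeR. The median log2 fold change of the 15 went from 1.19 to 0.62 and all 15 stayed positive, while that of the 28 others went from 0.30 to 0.11. By edgeR 0 members and 0 of all genes were then called, with 12 members higher at an unadjusted p under 0.05, where 8.13% of all genes were higher and 3.94% lower. DESeq2 with the same correction called 3 members, Usp16, Usp8 and Usp47, with adjusted p of 0.00276, 0.0110 and 0.0248, where 2.58% of all genes it tested were higher and 1.38% lower. In edgeR the corrected log2 fold changes of Usp9x, Usp8, Usp16 and Usp24 were 1.14 (SE 0.42), 1.06 (SE 0.25), 1.04 (SE 0.21) and 0.99 (SE 0.30). Usp34, Usp15 and Usp45 went to 0.26 (SE 0.35), 0.22 (SE 0.26) and 0.08 (SE 0.34). Usp15 was assigned a transcript of 11525 nt for a coding length of 2943 nt, so its correction depends on the transcript chosen.

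Deubiquitinases of other families had calls as well. Across the UCH, OTU, Josephin, JAMM, and MINDY and ZUFSP families 3 of 37 tested genes were higher and 0 lower by edgeR, where 4.43% of all genes were higher and 3.71% lower. DESeq2 called 5 of them higher and 3 lower, where 13.6% and 11.6% of all genes it tested were, and the 3 lower were Josd2, Cops6 and Eif3h. The difference from the ubiquitin-specific proteases was not tested. The 3 were Vcpip1, a partner of the ATPase p97 in Golgi reassembly, Otud4, and Mysm1, a histone H2A deubiquitinase. Vcpip1 was at 19.3 ± 3.51 against 7.60 ± 1.20 CPM (log2 fold change 1.34, SE 0.20, adjusted p = 0.0277). Otud4 and Mysm1 had 1.17 (SE 0.24, adjusted p = 0.0383) and 1.26 (SE 0.27, adjusted p = 0.0422). Cyld, which belongs to the fold of ubiquitin-specific proteases under another name and limits NF-kappa-B signalling, was at 11.6 ± 1.46 against 7.05 ± 0.625 CPM (0.72, SE 0.17, adjusted p = 0.0498). With the length and GC correction in edgeR none of these genes was called. Vcpip1, Otud4, Mysm1 and Cyld were then at 0.35 (SE 0.42), 0.43 (SE 0.42), 0.43 (SE 0.29) and 0.02 (SE 0.27) on the log2 scale. Of 16 partner proteins of the family 0 were called (median 0.24), and of 7 tested substrates 0 were (median 0.28). Egfr, the substrate with the highest level, was at 161, 369.6 and 155 against 155, 126 and 81.2 CPM (0.92, SE 0.41, adjusted p = 0.197).

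The authors' deposited table listed 39 of the members, and 17 of these were higher at an adjusted p under 0.05, with 0 lower, where 15.8% of its 10858 genes were higher and 13.4% lower. These 17 were the 15 genes called here with Usp40 and Usp6nl. For 38 of the 39 members the authors' mean normalised count lay within 10% of the mean of the deposited counts divided by size factors. The exception was Usp36, at 312 in the authors' deposited table and 412 from the counts. For Usp36 the authors' deposited table gives -0.01 on the log2 scale (SE 0.32, adjusted p = 0.991), where DESeq2 on the deposited counts gave 0.86 and an adjusted p of 0.0149. The counts of Usp36 were 429, 478 and 718 in TERT(High) and 399, 241 and 243 in TERT(Low) libraries, and these groups do not overlap. The other 38 members differed by at most 0.27 on the log2 scale between the authors' deposited table and DESeq2 here.

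**Figure D4:**
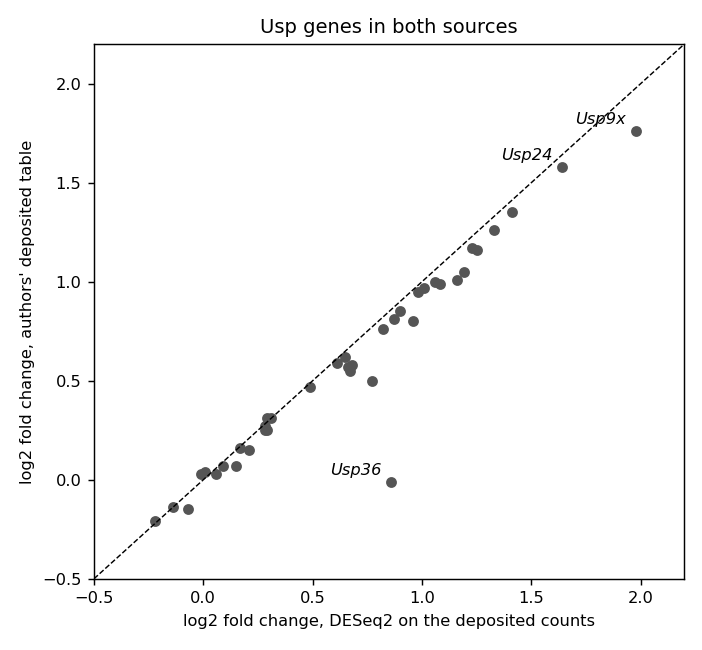
Log2 fold change of 39 Usp genes in the authors' deposited table against DESeq2 on the deposited counts, with the dashed line where both are equal. Usp36 lies far below the line, at -0.01 against 0.86, while the other 38 members lie along it and somewhat below it at the upper end.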

How the data were processed

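RNA of 6 libraries, TERT(High) and TERT(Low) hepatocytes of 3 mice, was analysed from the deposited count table, which per the file headers holds raw counts per gene named by Entrez number and symbol. Trim Galore 0.4.0, TopHat2 2.0.13, DESeq2 and the genome mm10 are named in the submitters' processing notes. No source used here gives the read counter, its strand setting or its annotation, so counts of overlapping genes are uncertain. Per the file headers, the authors' deposited table of results gives baseMean, here treated as a signal (mean normalised count), log2 fold changes with standard errors, a linear fold ratio, a test score, and p-values with adjusted p-values. The direction of these log2 fold changes, TERT(High) over TERT(Low), was read from the counts.

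All genes were fitted with edgeR 4.0.16 in R 4.3.3 (filterByExpr by group, TMM, robust quasi-likelihood, group as the only term), Benjamini-Hochberg adjusted over 13288 genes, and the Usp rows were taken from that fit. SE is the size of the log2 fold change over the root of its F statistic. Differences within a mouse are of log2(CPM + 0.1). Left-out libraries leave some groups with 2 samples, whose spread was pooled over both groups. Alternatives were DESeq2 1.42.0, limma-voom (limma 3.58.1), other scalings and filters, the mouse as a block, left-out libraries and mice, and offsets that remove each library's spline trend (5 degrees of freedom each) with transcript length and GC content. The script was tested on simulated data. Both libraries of a mouse come from the same animal per the labels, and their deviations from the group means correlated at 0.130, 0.591 and 0.435 for mice 1, 2 and 3.

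Coordinates are from RefSeq GRCm38.p6 (99.7% of genes matched by Entrez number) and lengths from the GENCODE M21 transcript with the longest coding sequence (93.1% of genes). Paralogs were compared by coding bases rather than by protein, with Biopython 1.88. Named with values per library are members past the threshold, the 5 most abundant, the 3 largest changes in each direction and 6 landmarks of a role, and further members are described by the same values. The members and lists were chosen with earlier results of these data known.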

Additional observations from a re-analysis of the deposited data

How the results depend on the processing

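The 15 members higher in TERT(High) cells numbered 13 to 18 under the alternatives of scaling, filter, dispersion and tool (DESeq2 18 with the mouse as a replicate block), and 14 in edgeR with that block. In the 9 fits without a library or a mouse the count of higher members ranged from 0 to 11. Only the fit without TERT(High) of mouse 1 made calls, 11 members (10 of them among the 15) and 937 higher and 713 lower of all genes. The other 8 called 0 of all genes, with a smallest adjusted p of 0.0633 to 0.309 over members, which was also the smallest over all genes. With the length and GC correction the count was 0 in edgeR, 0 with the replicate block and 3 with DESeq2. A count of 0 lower members held in all these fits at an adjusted p under 0.05. Each of the 15 kept its sign in all 330 combinations of gene and alternative and passed the threshold in 158. The alternatives reuse the counts by which the 15 were chosen, so these combinations are not independent checks. The cause of the lost calls was not tested.

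Among 95 tested genes of the other pathway lists 5 were higher in the main fit, where 4.43% of all genes were. With library totals 3 were higher (628 of all 13288 genes), and with limma-voom 10 (10.2% of all genes). DESeq2 called 10 higher (13.6% of all genes it tested), and 16 with the replicate block (1654 of all genes). At an unadjusted p under 0.05 edgeR counted 19 higher (16.3% of all genes). The count was 0 with each length and GC correction (edgeR, edgeR with the replicate block, DESeq2), where DESeq2 called 2.58% of all genes. Without a library or mouse it was 0 to 4. Counts of lower genes were 1 in the main fit (3.71% of all genes), 3 with the replicate block (4.30%) and 5 with limma-voom (8.30%). DESeq2 called 5 lower (11.6% of all genes it tested), and 8 with the replicate block (1486 of all genes). At an unadjusted p under 0.05 edgeR counted 6 lower (12.4% of all genes). Lower genes numbered 2 with DESeq2 size factors (464 of 13288 genes), 4 with upper quartiles (712) and 0 with library totals (19). The strict filter (at least 1 CPM in 3 libraries) gave 3 (693 of 10645 genes), and the fit without robust dispersion 2 (515 of 13288). The count was 0 with each length and GC correction (1.38% of all genes by DESeq2) and 0 to 3 without a library or mouse.

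Of the named members not called, 5 changed sign in some setting. Usp4 (0.09) was at -0.01, -0.02 and -0.04 with the length and GC correction in edgeR, with the replicate block and in DESeq2, and Usp18 (-0.05) at 0.21, 0.07 and 0.19. Usp14 (0.30) was at -0.36, -0.32 and -0.37 in the same 3 fits. With library totals Usp5 was at 0.02 and Usp18 at 0.05. Without a library or mouse Usp4 ranged from -0.18 to 0.27, Usp5 from -0.31 to 0.11, Usp11 from -2.23 to 0.61 and Usp18 from -0.66 to 0.22. All had an edgeR adjusted p far above the threshold in the main fit (0.411 to 0.945). Members under about 1 CPM, such as Usp49, Usp35 and Usp11, rest on under 60 counts in a library, which limits their precision.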

Other observations

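Uchl1, a deubiquitinase of another family that is known for its abundance in neurons, had its highest level in the same library as 3 scarce Usp genes. It was at 0.147, 0 and 1.32 CPM in TERT(High) and 3.27, 0 and 1.54 CPM in TERT(Low) cells of mice 1, 2 and 3. Usp11 was at 0.0816, 0.0661 and 0.343 against 0.790, 0.0191 and 0.247 CPM, and Usp13 and Usp29 had their highest values, 0.436 and 0.341 CPM, in the same library, TERT(Low) of mouse 1. These genes were chosen after their values were seen, and no test was run.

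The library totals of TERT(High) in mouse 1 included a collagen RNA that the other libraries had little of: Col1a1 was at 127 CPM there and at 0.115 to 5.96 CPM in the other 5 libraries. Clec4f, a Kupffer cell marker, was highest in both libraries of mouse 3, at 22.3 and 6.77 CPM, against 1.83 to 4.05 CPM elsewhere. Myc, a substrate of Usp28, was at 11.8 and 7.98 CPM in mouse 1 and at 2.08 to 3.57 CPM in the other libraries.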
